A study of Saccharomyces cerevisiae with 3 samples.

Results

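The genes described here encode the enzymes that make isoleucine, valine and leucine, the branched-chain amino acids, in the budding yeast Saccharomyces cerevisiae. They are the 10 genes ILV1, ILV2, ILV6, ILV5, ILV3, LEU4, LEU9, LEU1, BAT1 and BAT2, taken by gene symbol from the annotation of the array, and all 10 were measured, out of 5539 named genes. Cells labelled wild-type were exposed to 0.2 mM arsenite, As(III), for 1 h and set against untreated wild-type cells. On each of 3 two-colour arrays the arsenite-exposed RNA competed with untreated RNA, so that every array yields its own ratio for a gene. Arsenite-exposed RNA was labelled with Cy5 on replicates 1 and 2 and with Cy3 on replicate 3. The labels give no strain background, auxotrophy, mating type or growth medium, and so do not say whether the cultures were supplied with these amino acids.

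Isoleucine and valine are built by the same mitochondrial enzymes acting on different substrates: acetolactate synthase (the catalytic subunit Ilv2 and the regulatory subunit Ilv6), the reductoisomerase Ilv5 and the dihydroxyacid dehydratase Ilv3, which carries an iron-sulfur cluster. Threonine deaminase, Ilv1, supplies the isoleucine side. Leucine branches off from the valine precursor ketoisovalerate through the isopropylmalate synthases Leu4 and Leu9, the isomerase Leu1, another iron-sulfur enzyme, and the dehydrogenase Leu2. The transaminases Bat1, in mitochondria, and Bat2, in the cytosol, perform the last step of synthesis, and Bat2 is also known for the first step of breakdown. The pathway is known to be controlled by the activator Leu3, which responds to isopropylmalate, and by Gcn4, the activator of amino acid synthesis genes.

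All values are log2 ratios of arsenite-exposed over untreated cells, given relative to the median spot of each array, with the SD over 3 arrays. Their direction is likely rather than stated: it rests on the dyes in the labels, on titles that name the exposed cells first and on reading the deposited ratio as Cy5 over Cy3. Replicate 3 was multiplied by -1 for its exchanged dyes, since as deposited it correlated negatively with replicates 1 and 2 over all spots (r = -0.782 and -0.613), whereas replicates 1 and 2 correlated positively (r = 0.784). The logarithm was read as base 2, which is not stated; with a natural logarithm the folds would be larger. The deposited medians were -0.07, 0.54 and 0.12 on replicates 1, 2 and 3. ARR2, the arsenate reductase, and ARR3, the arsenite exporter, were above 0 on all 3 arrays, with means of 3.57 ± 0.31 and 1.80 ± 0.25. A ratio of this kind cannot tell fewer expressing cells from less RNA per cell, and it carries no level of a gene in either culture.

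Transcripts of the synthesis pathway were lower in arsenite-exposed cells at nearly every step, and the cytosolic transaminase gene ran the other way. Of the 10 genes, 8 fell and BAT2 rose at an adjusted p threshold of 0.05, and ILV1 did not pass; over all genes, 18.8% fell and 13.3% rose by the same test (1044 and 735 of 5539). The median of the 10 means was -0.97, beside -0.02 over all genes. The 9 genes other than BAT2 were below 0 on all 3 arrays, a pattern found in 30.9% of all genes. A fall of at least 2-fold was reached by ILV5, BAT1, ILV6 and, at the limit, LEU1, which makes 4 of 10 against 8.58% of all genes. With 1 array left out at a time, 7 or 8 of the genes fell and BAT2 rose in each case, and the counts over all genes were smallest without replicate 1 (610 lower and 394 higher).

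**Figure D1:**
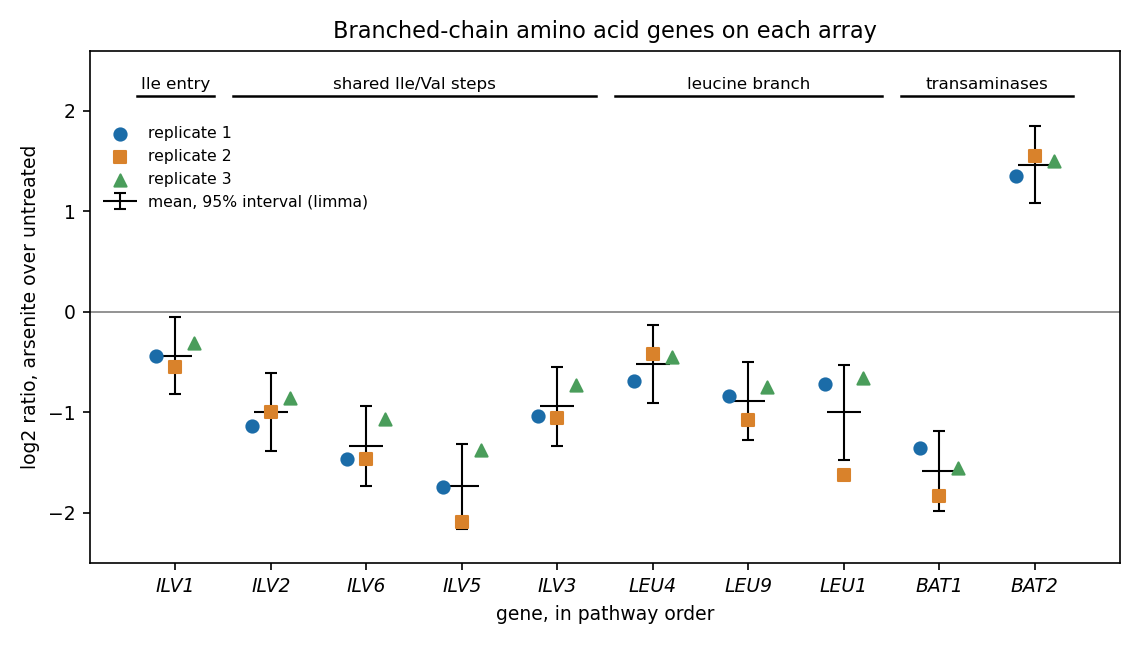
Log2 ratio of arsenite-exposed over untreated cells (vertical axis) for the 10 genes in pathway order (horizontal axis). Coloured symbols are the 3 arrays, and bars are the mean with the 95% interval of the limma fit. All 3 symbols lie below 0 for every gene but BAT2, whose symbols lie between 1.35 and 1.55.

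The steps shared by isoleucine and valine held the largest fall of the pathway. ILV5, the acetohydroxyacid reductoisomerase, had -1.74, -2.09 and -1.38 on replicates 1, 2 and 3. All 3 arrays placed it far below the median gene, and its mean of -1.74 ± 0.36 is a 3.33-fold fall (limma adjusted p = 3.32e-05). It was the lowest of the 10 genes on replicates 1 and 2 and second to BAT1 on replicate 3, and its mean ranked 119 from the lowest among 5539 genes.

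Both subunit genes of acetolactate synthase fell. ILV6, for the regulatory subunit through which valine inhibits the enzyme, had -1.46, -1.47 and -1.07 (mean -1.33 ± 0.23, 2.52-fold lower, adjusted p = 0.000139). ILV2, for the catalytic subunit, had -1.14, -0.997 and -0.86 (mean -0.997 ± 0.14, adjusted p = 0.000984). The regulatory subunit gene lay below the catalytic one on every array. ILV2 stood just short of a 2-fold fall, at 1.995-fold.

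ILV3, the dihydroxyacid dehydratase that completes the shared steps, had -1.04, -1.05 and -0.73. The arrays lay close together, and the mean of -0.94 ± 0.19 is a 1.92-fold fall (adjusted p = 0.00161). ILV1, the threonine deaminase at the entry to isoleucine, had -0.44, -0.55 and -0.31, all on the same side of 0. Its mean of -0.44 ± 0.12 did not pass (adjusted p = 0.0803, 95% interval -0.82 to -0.05). It passed when duplicate spots were kept apart in the fit (adjusted p = 0.0431) and in none of the other 10 settings tried.

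**Figure D2:**
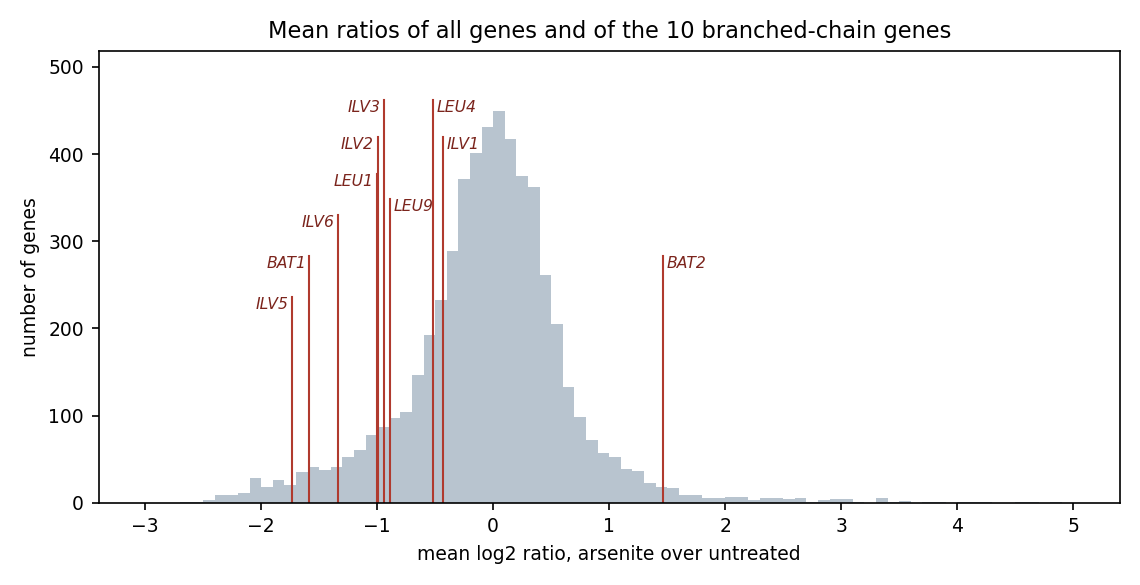
Number of genes (vertical axis) by mean log2 ratio of arsenite-exposed over untreated cells (horizontal axis) for all 5539 named genes, with a line at each of the 10 branched-chain genes. The lines of 9 genes lie left of 0, from -1.74 for ILV5 to -0.44 for ILV1, and the line of BAT2 lies at 1.47.

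In the leucine branch all 3 genes fell, and they differed in how well the arrays repeated. LEU4, the main isopropylmalate synthase and the feedback-regulated entry to leucine, had -0.69, -0.42 and -0.45 (mean -0.52 ± 0.14, adjusted p = 0.0421). That call was lost without replicate 1 (adjusted p = 0.407), without replicate 3 (0.0512), with values as deposited (0.353) and after quantile normalization (0.0960), while its mean stayed between -0.57 and -0.40. LEU9, its paralog, had -0.84, -1.08 and -0.75 (mean -0.89 ± 0.17, 1.85-fold lower, adjusted p = 0.00230). Of the synthase genes, LEU9 therefore had the lower ratio on every array, and its call held in all 11 alternative settings.

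LEU1, the cytosolic isopropylmalate isomerase, was the least even of the 10. It had -0.72, -1.63 and -0.66, so that replicate 2 lay well below the other arrays. The mean was -1.001 ± 0.54 (2.00-fold lower, adjusted p = 0.00364), and without replicate 2 it was -0.69 (adjusted p = 0.0154). The duplicate spots of LEU1 on replicate 2 read -1.68 and -1.57, so both spots carried the low value.

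Both genes that complete this branch but stand outside the 10 fell as well, where 18.8% of all genes fell. LEU2, the isopropylmalate dehydrogenase, had -1.11, -1.28 and -0.12, with replicate 3 close to 0. Its mean of -0.83 ± 0.63 passed (adjusted p = 0.0147), but not without replicate 1 (0.123), without replicate 2 (0.0786) or with values as deposited (0.0584). OAC1, the mitochondrial carrier that exports isopropylmalate to the cytosol where Leu1 and Leu2 act, had -1.22, -1.37 and -1.52 (mean -1.37 ± 0.15, adjusted p = 9.45e-05). The carrier thus had ratios below -1 on all 3 arrays, lower than LEU4, LEU9 and LEU1 in the mean.

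The transaminase genes moved in opposite directions. BAT1, for the mitochondrial enzyme, had -1.35, -1.84 and -1.56 (mean -1.58 ± 0.24, 2.99-fold lower, adjusted p = 4.37e-05). BAT2, for the cytosolic enzyme, had 1.35, 1.55 and 1.50 (mean 1.47 ± 0.10, 2.77-fold higher, adjusted p = 5.45e-05). BAT1 ranked 171 from the lowest and BAT2 118 from the highest of 5539 genes. A rise of at least 2-fold past the test, as in BAT2, was found in 5.09% of all genes, and a ratio above 0 on all 3 arrays in 27.6%. BAT2 had the smallest SD of the 10, and each of its 6 spots lay above 1.2.

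Within each array, BAT1 minus BAT2 was -2.71, -3.39 and -3.05, a mean difference of -3.05 ± 0.34, or 8.28-fold between the responses. LEU4 minus LEU9 was 0.15, 0.65 and 0.30, with a mean of 0.37 ± 0.26 that was 0.23 without replicate 2. Both differences kept their sign on all 3 arrays, and a two-sided exact permutation test over arrays gave p = 0.25 for each (0.25 adjusted over the 2 pairs), the smallest value that 3 arrays allow. Each pair is similar in sequence, and probe sequences were not used here, so cross-hybridisation between the paralogs was not tested.

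**Figure D3:**
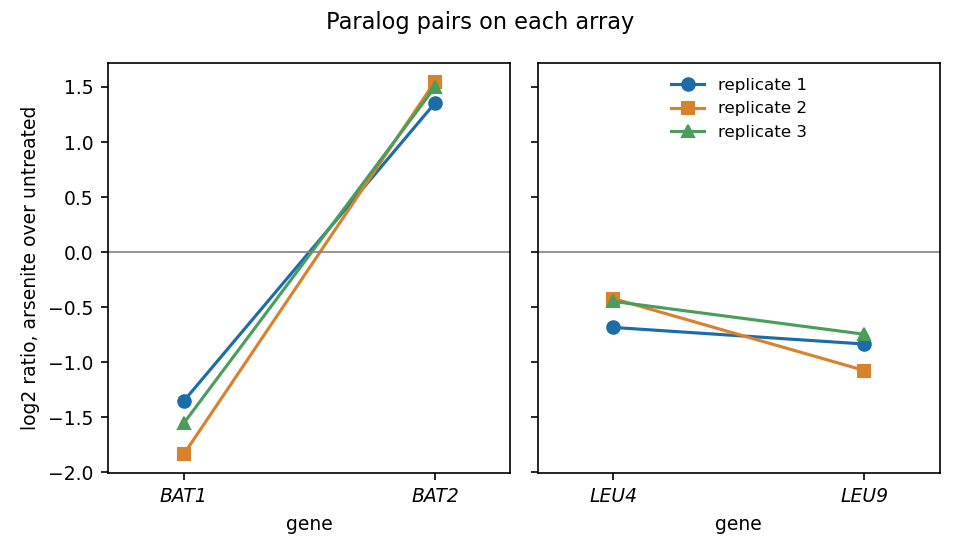
Log2 ratio of arsenite-exposed over untreated cells (vertical axis) for BAT1 and BAT2 (left) and for LEU4 and LEU9 (right), with a line for each of the 3 arrays. All lines rise steeply from BAT1, below -1.3, to BAT2, above 1.3, and fall slightly from LEU4 to LEU9.

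Duplicate spots repeated these values. Each of the 10 genes had 2 spots on every array, and the 54 spot values of the 9 genes other than BAT2 were all below 0. The absolute difference between duplicate spots had a median of 0.14 and a maximum of 0.40 over the 30 pairs of these genes, beside a median of 0.16 over all genes with 2 spots. The largest of these differences was that of LEU4 on replicate 3, with spots at -0.65 and -0.25.

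The regulators were mixed at the transcript level. LEU3, the activator of the branch, had -0.30, -0.12 and -0.45 and did not pass (mean -0.29 ± 0.16, adjusted p = 0.240). GCN4, whose protein level is known to be set mainly by translation of its mRNA, had -1.11, -1.11 and -1.29 (mean -1.17 ± 0.10, adjusted p = 0.000293). All 3 arrays put GCN4 below -1, and it passed in every setting tried.

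Of 11 regulators and sensors in all, 3 fell, 1 rose and 7 did not pass, with a median of -0.13. In shares, 36.4% passed and 27.3% fell, beside 32.1% and 18.8% of all genes. Besides GCN4, the falls were those of GCN1 (-1.03 ± 0.50, adjusted p = 0.00253) and GCN20 (-0.82 ± 0.29, adjusted p = 0.00519), partners that activate the kinase Gcn2 on ribosomes. GCN20 did not pass with values as deposited (adjusted p = 0.0661). GCN2 itself had 0.31, -0.15 and 0.94 and did not pass (adjusted p = 0.222), though it did without replicate 2 (0.0420) and with a dye effect in the fit (0.0342). SSY1, the plasma membrane sensor of external amino acids, rose (0.83 ± 0.44, adjusted p = 0.00770), though not without replicate 1 (0.0804).

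Among permease genes through which branched-chain amino acids enter the cell, 3 of 6 fell, 0 rose by limma (also 0 at an unadjusted p under 0.05), and the median was -0.53. Over all genes, 18.8% fell and 13.3% rose. AGP1, a broad-range permease, had -0.87, -1.35 and -0.84 (mean -1.02 ± 0.29, adjusted p = 0.00121). GAP1, the general permease, had a mean of -0.71 ± 0.51 (adjusted p = 0.0221) and GNP1, a glutamine permease of broad range, of -0.68 ± 0.09 (adjusted p = 0.0106). AGP1 alone of the 3 passed without replicate 1 (adjusted p of 0.0875 for GAP1 and 0.170 for GNP1) and with values as deposited (0.134 for GAP1 and 0.163 for GNP1), and GAP1 did not pass without replicate 2 (0.107). BAP2, BAP3 and TAT1, the more specific permeases, had means of -0.19, 0.34 and -0.38 and did not pass.

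Genes that make or use threonine, the precursor of isoleucine, split by step. Of 7, 3 rose, 3 fell and 1 did not pass, with a median of -0.27. Thus 85.7% passed in 1 direction or the other, beside 32.1% of all genes. At the start of the aspartate route, HOM3, aspartate kinase, and HOM6, homoserine dehydrogenase, were higher (0.53 ± 0.20 and 0.80 ± 0.13, adjusted p = 0.0418 and 0.00435), whereas HOM2 between them had -0.27 ± 0.48 (adjusted p = 0.349, and 0.0468 without replicate 2, with a mean of -0.54). The steps from homoserine to threonine were lower: THR1, homoserine kinase, had -0.91 ± 0.32 (adjusted p = 0.00282) and THR4, threonine synthase, -1.04 ± 0.10 (adjusted p = 0.000715).

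Of the enzymes that consume threonine, GLY1, threonine aldolase, fell (-0.77 ± 0.23, adjusted p = 0.00663). CHA1, a deaminase that breaks down serine and threonine, rose (0.74 ± 0.62, adjusted p = 0.0257), with 0.05 on replicate 1 against 1.25 and 0.93 on replicates 2 and 3. Without replicate 1 the calls of HOM3, HOM6, THR1 and GLY1 were lost (adjusted p = 0.385, 0.107, 0.101 and 0.172), and those of THR4 and CHA1 were not. CHA1 did not pass without replicate 2 (0.132) and HOM3 not without replicate 3 (0.0884), and with values as deposited neither HOM3 (0.0992) nor GLY1 (0.0944) passed.

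Genes of the breakdown to fusel alcohols, which follows transamination, were mostly not past the test. Of 14, 1 rose, 3 fell and 10 did not pass, with a median of -0.12. Thus 28.6% passed and 21.4% fell, beside 32.1% and 18.8% of all genes. SFA1, a bifunctional alcohol and formaldehyde dehydrogenase, had 0.82, 1.66 and 1.71 (mean 1.40 ± 0.50, adjusted p = 0.000300). ARO10, a decarboxylase of 2-keto acids, had 0.13, 0.08 and 0.06 and did not pass (adjusted p = 0.730).

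The 3 that fell were alcohol dehydrogenase genes. ADH3, the mitochondrial isozyme, had a mean of -1.04 ± 0.85 (adjusted p = 0.0103), ADH2 of -0.82 ± 0.20 (adjusted p = 0.00396) and ADH4 of -0.63 ± 0.49 (adjusted p = 0.0388). ADH3 did not pass without replicate 2 (0.0710), and ADH2 did not pass without replicate 1 (0.0793) or with values as deposited (0.0626). ADH4 did not pass without replicate 1 (0.197), without replicate 3 (0.196), with values as deposited (0.218) or after quantile normalization (0.0571). ECM31, PAN5 and PAN6, of the pantothenate pathway that shares ketoisovalerate with leucine, had means of 0.03, -0.49 and 0.22. Of these, 0 of 3 passed in either direction by limma, with 1, PAN5, at an unadjusted p under 0.05. Over all genes 32.1% passed, and 3 genes are too few to set against that share. PAN5 passed with duplicate spots kept apart (adjusted p = 0.0359) and with a dye effect in the fit (0.0365).

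Iron-sulfur enzymes outside the pathway were tabulated because ILV3 and LEU1 encode enzymes of that kind. Of 9 measured genes 2 rose, 0 fell by limma and 7 did not pass, with a median of 0.19. The share past the test was 22.2%, beside 32.1% of all genes. At an unadjusted p under 0.05, 0 had a negative mean. At that looser threshold MET5 (0.49 ± 0.35) and LYS4 (0.50 ± 0.60) were higher as well. SDH2, the iron-sulfur subunit of succinate dehydrogenase, had 1.03, 1.14 and 1.52 (mean 1.23 ± 0.26, adjusted p = 0.000284). BIO2, biotin synthase, had 0.69 ± 0.17 (adjusted p = 0.0106, and 0.120 without replicate 1), and ACO1, aconitase, a relative of Leu1, had -0.06, 0.03 and -0.03. The lowest of the 9 was RLI1, an iron-sulfur protein of ribosome recycling (-0.36 ± 0.14, adjusted p = 0.146).

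**Figure D4:**
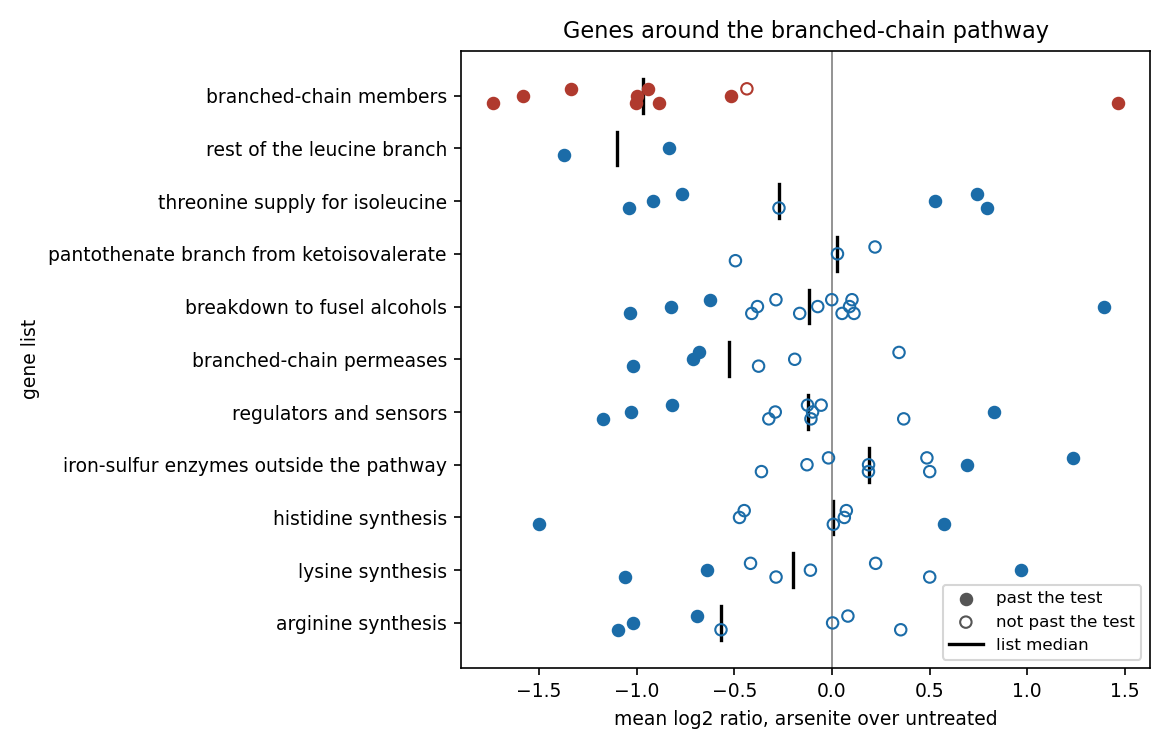
Mean log2 ratio of arsenite-exposed over untreated cells (horizontal axis) of each gene in 11 lists (vertical axis), filled where the gene passed the test and open where it did not, with a bar at the list median. The 10 branched-chain genes have a median of -0.97, and the medians of histidine, lysine and arginine synthesis are 0.01, -0.20 and -0.57.

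Other amino acid pathways that Gcn4 is known to control had fewer genes that fell at the threshold. In histidine synthesis 1 of 7 genes fell and 1 rose, in lysine synthesis 2 of 8 fell and 1 rose, and in arginine synthesis 3 of 7 fell and 0 rose by limma (also 0 with a positive mean at an unadjusted p under 0.05). In shares, 14.3%, 25% and 42.9% fell, beside 18.8% of all genes. HIS4, HIS7 and ARG1 had means of -0.45, -0.47 and -0.57 and did not pass, whereas LEU4 passed at -0.52. Without replicate 3 the falls were 2 in histidine and 4 in arginine synthesis, and without replicate 1 they were 1 and 2. Their medians were 0.01, -0.20 and -0.57, beside -0.97 for the branched-chain genes; these differences between lists were not tested.

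Single genes of those pathways fell as far as some branched-chain ones, though none measured fell as far as ILV5 or BAT1 (means -1.74 and -1.58). HIS1, the first enzyme of histidine synthesis, had -1.59, -1.41 and -1.49 (mean -1.50 ± 0.09, adjusted p = 4.72e-05). LYS21, a homocitrate synthase at the entry to lysine, had -1.06 ± 0.06 (adjusted p = 0.000590). ARG3, ornithine carbamoyltransferase, and ARG4, argininosuccinate lyase, had -1.10 ± 0.15 and -1.02 ± 0.13 (adjusted p = 0.000513 and 0.000838).

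Against these, LYS1, the last enzyme of lysine synthesis, rose (0.97 ± 0.17, adjusted p = 0.00127), and so did HIS5, histidinol-phosphate aminotransferase (0.57 ± 0.31, adjusted p = 0.0359). ARG8, acetylornithine aminotransferase, fell (-0.69 ± 0.07, adjusted p = 0.00929) and LYS12, homoisocitrate dehydrogenase, fell (-0.64 ± 0.38, adjusted p = 0.0259). Without replicate 1 the calls of HIS5, ARG8 and LYS12 were lost (adjusted p = 0.206, 0.107 and 0.113), as they were with values as deposited (0.0731, 0.152 and 0.205). HIS5 also did not pass without replicate 2 (0.119), nor LYS12 without replicate 3 (0.151).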

How the data were processed

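Each of 3 two-colour arrays compared arsenite-exposed with untreated RNA. The deposited table holds log ratios that the authors made, read here as log2, for 13056 spots, with 0 missing values (scanner, background correction, normalization and logarithm base not given in the sources used here). Per the platform annotation, which can be old, 11138 spots had 1 symbol, 0 had several and 1918 had none. RefSeq's table for assembly R64 held 5534 of the 5539 gene IDs and served for names and neighbours. Replicate 3 was turned, each array was centred on its median over all spots, and the spots of a gene were averaged. A moderated test of each gene's mean against 0 was made with limma 3.58.1 (lmFit, eBayes; R 4.3.3), two-sided, with Benjamini-Hochberg adjustment over all genes at a threshold of 0.05 (prior degrees of freedom 9.91, residual 2, median standard error 0.19). The fit was run on simulated arrays in which few genes changed, each by at least 2-fold, so that run does not gauge calls on smaller changes. The labels do not say whether arrays came from separate cultures, so p-values of the main fit measure the spread between these arrays, which may be technical. That spread was taken mostly from a value pooled over all genes, and only in part from the SD of the gene itself. LEU1, with an SD of 0.54, had a standard error of 0.22, and BAT2, with an SD of 0.10, had 0.18. With values as deposited, with a dye effect, without replicate 1 and without replicate 3, adjusted p followed the size of the mean alone. With values as deposited, LEU1 at -0.886 and ILV2 at -0.881 had 0.0137 and 0.0144, though their SDs differed. A call lost in those settings thus does not reflect the spread of that gene, and it need not mean a smaller change. HIS5 lost its call as deposited with a mean of 0.69, beside 0.57 in the main fit. LYS12 lost its call without replicate 1 at -0.71, beside -0.64. The size of mean needed to pass differed between those settings and the main fit. Precision is limited by the number of arrays. Tables and figures used Python 3.11.15, pandas 2.3.3, scipy 1.17.1 and matplotlib 3.10.9.

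The members and all lists were chosen with earlier results of these data known. Lists cover the rest of the leucine branch, threonine supply, pantothenate, fusel alcohols, permeases, regulators, iron-sulfur enzymes, histidine, lysine and arginine synthesis, an arsenite check, and a-cell, alpha-cell and meiosis genes. Genes were named by rule: the 10 members, LEU2, OAC1, LEU3 and GCN4; each permease, threonine or regulator gene past the test; and up to 3 others per list with the largest change past the test. The remaining named genes, and all neighbours, were chosen after their values were seen. A few listed genes are not reported here. Alternatives were no centring, scaling, quantile normalization, separate duplicate spots, a dye effect, robust eBayes and each array left out; 2 more, centring after quantile normalization and centring on the median over named genes, were added after seeing the data.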

Additional observations from a re-analysis of the deposited data

How the results depend on the processing

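In 11 alternative settings, 8 of the 10 genes (all but ILV1 and LEU4) passed in the same direction every time, and of the 50 genes named by rule 0 changed sign. With values as deposited, 603 genes fell and 606 rose over all genes, and 7 branched-chain genes fell. Quantile normalization gave 1106 higher and 872 lower, so that 44.1% of calls were falls, beside 58.7% in the values reported. In both settings the median of all genes lay higher by 0.12, because the arrays were not centred; with centring after quantile normalization, 797 rose and 1092 fell. With 1 array left out, 394 to 798 genes rose and 610 to 1112 fell, 7 to 8 branched-chain genes fell and 1 rose, and 23 to 43 genes of the other lists passed, beside 41 with all arrays; the low ends came without replicate 1 (7 branched-chain genes also without replicate 3), and the cause was not tested. BAT1 minus BAT2 ranged from -3.22 to -2.88, and LEU4 minus LEU9 from 0.23 to 0.48. The pairing of exposed with untreated RNA on each array is already part of the test, and no further paired analysis was needed. Signal over background is unknown, so genes near background cannot be told from the others.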

Other observations

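The genes next to the branched-chain genes on the chromosomes were read as well. Of 20 nearest protein-coding neighbours 19 were measured, of which 6 rose, 1 fell and 12 did not pass, with a median of 0.08. Over all genes, 13.3% rose and 18.8% fell, and the difference from these shares was not tested. STP22, of endosomal sorting, beside ILV6, had 2.50 (adjusted p = 5.86e-06), and SPG4, a gene known from stationary phase, beside ILV2, had 1.55 (adjusted p = 7.08e-05). SET5, a histone methyltransferase gene beside BAT1, had 1.01 (adjusted p = 0.000824). The neighbour that fell was PMA1, the plasma membrane proton pump, beside LEU1 (-1.80, adjusted p = 8.92e-05).

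Some mating type and sporulation genes passed the test too, and their part in the results above was not tested. The share past the test was 66.7% of the a-cell, 50% of the alpha-cell and 37.5% of the meiosis genes, beside 32.1% of all genes. Of 6 a-cell genes 4 fell, led by MFA2 (-1.27 ± 0.78), STE2 (-1.05 ± 0.57) and STE6 (-1.004 ± 0.40), and 0 rose by limma (also 0 at an unadjusted p under 0.05). Among 4 alpha-cell genes STE3 rose (1.67 ± 0.53) and MF(ALPHA)2 fell (-0.64 ± 0.47). Of 8 meiosis genes 3 rose, IME2 (1.95 ± 0.52), DIT1 (1.06 ± 0.40) and HOP1 (0.78 ± 0.29), and 0 fell by limma (also 0 at an unadjusted p under 0.05). IME1 and NDT80, also on the meiosis list, had means of -0.03 and 0.05 and did not pass. The fourth a-cell gene that fell was AGA2 (-0.74 ± 0.44), not without replicate 1 (adjusted p = 0.305) or with values as deposited (0.112). Other calls lost in some settings were those of HOP1 without replicate 1, DIT1 with duplicate spots kept apart and MF(ALPHA)2 without replicate 1, without replicate 2, with values as deposited and after quantile normalization. The third gene of the arsenite check, YCF1, the vacuolar conjugate pump, had 0.93 ± 0.51 (adjusted p = 0.00508, and 0.0535 without replicate 1).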
